A study of Mus musculus with 12 samples.

Results

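The 30 genes described here encode proteins that hepatocytes release into plasma, namely carriers of vitamins, hormones and haem, protease inhibitors, fetuins, apolipoproteins, and the enzymes and transfer protein that act on lipoproteins. They were found in the deposited tables by gene symbol, from a list of named genes, and are 30 of the 55450 genes in those tables. RNA-Seq was performed in 12 libraries of mouse primary hepatocytes, 3 in each of 4 groups. KO hepatocytes (Cebpa ΔAlb) had floxed alleles of Cebpa, the gene of the transcription factor CEBPA, removed by a Cre recombinase that the albumin promoter drives, and WT hepatocytes (Cebpa fl/fl) carried the floxed alleles without Cre. OE hepatocytes received an adenovirus that expresses mouse Cebpa (Ad-m-Cebpa), and GFP hepatocytes received an adenovirus that expresses green fluorescent protein (Ad-GFP). In its culture assays the paper used wild-type hepatocytes for these viruses, and hepatocytes of chow-fed mice for the knockout. It does not state either for these libraries. The floxed line was backcrossed to C57BL/6N and only male mice were used in the study; the labels give neither the age of the mice nor the time of virus exposure, and they number the libraries as biological replicates without saying whether these were separate mice or separate cultures. The p-values may therefore measure only the spread between preparations.

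The liver makes most of the protein in plasma. Albumin and its relatives bind fatty acids, hormones and vitamins and move them through blood, while apolipoproteins hold lipid in particles that can be assembled, unloaded by lipases and taken up again. C/EBP and HNF family factors were first characterised in liver on the promoters of such genes, albumin among them.

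Total expected counts were 20368564 to 23304230 in KO, 20966339 to 23261800 in WT, 20160081 to 23193817 in OE and 20467466 to 22132226 in GFP libraries. Levels are given as CPM, counts scaled to a common library size by TMM, when groups are compared, with KO and WT scaled apart from OE and GFP, and as TPM, which allow for gene length, when genes are compared. Cebpa was at 0.963, 0.257 and 0.164 CPM in KO, against 309, 229 and 290 CPM in WT. With the virus it reached 13292, 13652 and 14079 CPM in OE, against 48.0, 50.6 and 54.3 CPM in GFP. The summed level of 10 hepatocyte marker genes was 9711 to 17917 TPM in KO, 14667 to 17909 TPM in WT, 812 to 861 TPM in OE and 1245 to 1286 TPM in GFP, so the adenovirus cultures carried far less of these transcripts per library than the KO and WT cells. Other cells were checked by their markers. The summed level of 12 macrophage genes was 14.2 to 42.7 TPM in KO and 3.58 to 23.96 TPM in WT. It was 189 to 209 TPM in OE and 174 to 198 TPM in GFP, nearly all of it Cd68, which stood at 185 to 205 TPM in OE and 173 to 196 TPM in GFP. The Kupffer cell genes Adgre1 and Clec4f were at or near 0, at no more than 0.12 and 0.18 TPM in OE and at 0 TPM in GFP. The neutrophil genes S100a8 and S100a9 appeared in OE, where Ly6g and Cd3e were at 0 TPM in every library. The summed level of 8 stellate cell and fibroblast genes was 4.76 to 7.49 TPM in KO, 1.96 to 4.31 TPM in WT, 19.1 to 19.8 TPM in OE and 6.89 to 7.10 TPM in GFP, and that of 6 bile duct genes 9.48 to 18.4 TPM in KO, 2.41 to 4 TPM in WT, 19.4 to 20.3 TPM in OE and 11.2 to 13.3 TPM in GFP, with no overlap in either comparison. Reln and Sox9, 2 of the 4 such genes tested, were called higher in KO (edgeR adjusted p = 0.0270 and 0.0335), and 5 rose and 3 fell of 10 tested in OE. The summed level of 8 endothelial genes was 8.62 to 20.98 TPM in KO, 7.13 to 14.7 TPM in WT, 15.8 to 20.2 TPM in OE and 16.97 to 20.6 TPM in GFP. The part of these markers in the members' results was not tested. In such bulk RNA, fewer cells of a type and less RNA per cell cannot be told apart.

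The promoters of 4 members, chosen by their results in OE or their level, are shown. They are those of Ahsg, which fell most in OE, its neighbour Fetub and the unlinked Rbp4, which both rose, and Alb, the most abundant member. Each is 250 bases before and 50 bases from the RefSeq start site on, 5′ to 3′ on the gene's own strand (GRCm38.p6, the mm10 build). Capitals mark matches on either strand to the C/EBP motif TTNNGCAA. Sites that depart from this pattern are not marked, so a window without capitals may still hold a C/EBP site.

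Ahsg (chr16:22891765-22892064, plus strand): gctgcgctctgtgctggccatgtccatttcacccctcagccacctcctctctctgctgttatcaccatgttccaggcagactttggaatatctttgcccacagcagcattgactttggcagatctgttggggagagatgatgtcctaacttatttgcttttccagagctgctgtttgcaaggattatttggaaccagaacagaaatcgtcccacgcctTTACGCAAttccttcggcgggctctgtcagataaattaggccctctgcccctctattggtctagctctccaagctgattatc

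Fetub (chr16:22918132-22918431, plus strand): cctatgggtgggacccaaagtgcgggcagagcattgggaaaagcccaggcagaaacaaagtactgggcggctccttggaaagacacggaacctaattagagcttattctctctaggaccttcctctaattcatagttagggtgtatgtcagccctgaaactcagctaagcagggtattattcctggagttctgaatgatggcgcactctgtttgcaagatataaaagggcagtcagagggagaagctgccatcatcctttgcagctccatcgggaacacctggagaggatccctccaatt

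Rbp4 (chr19:38125272-38125571, minus strand): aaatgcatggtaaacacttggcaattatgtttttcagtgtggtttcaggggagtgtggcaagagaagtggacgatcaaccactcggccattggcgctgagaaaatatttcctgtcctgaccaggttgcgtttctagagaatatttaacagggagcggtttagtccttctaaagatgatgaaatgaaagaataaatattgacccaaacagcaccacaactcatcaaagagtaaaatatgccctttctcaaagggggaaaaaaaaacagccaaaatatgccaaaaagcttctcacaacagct

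Alb (chr5:90460620-90460919, plus strand): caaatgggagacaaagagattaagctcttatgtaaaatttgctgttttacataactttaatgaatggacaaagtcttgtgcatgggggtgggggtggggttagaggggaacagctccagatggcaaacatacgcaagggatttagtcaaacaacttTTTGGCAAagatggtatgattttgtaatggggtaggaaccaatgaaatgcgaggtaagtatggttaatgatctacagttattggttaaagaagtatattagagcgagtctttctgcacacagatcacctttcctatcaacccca

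The match in the Ahsg promoter began 32 bases before the start site and that in the Alb promoter 94 bases before it, and the Fetub and Rbp4 windows held none. Promoters were found for 24 members; those of Ttr, Apoc1, Apoc3, Apof, Fgl1 and Hp were not analysed. TTNNGCAA was found in 6 of the 24 (25%), in Ahsg, Alb, Apob, Hpx, Pltp and Serpina1a, against 10.8% of 27025 promoters of the same length over all genes. Windows without a match included those of Apoc2, Lipc, Gc and Apom, which fell 4.26-, 4.03-, 3.98- and 3.86-fold in OE. They also included those of Rbp4 and Fetub, which rose 1.28- and 1.30-fold. Of the 6 with a match, Ahsg, Apob, Hpx and Alb fell 8.07-, 3.58-, 3.30- and 2.34-fold, and Pltp and Serpina1a 1.52- and 1.55-fold. Any link between a TTNNGCAA match and the change in OE was not tested. Its palindromic form TTGCGCAA, which is contained in TTNNGCAA, was found in 0 of the 24 and in 0.185% of all promoters. The HNF1 core GTTAAT was found in 6 of 24 (25%), against 7.20% of all promoters, and was present in Alb, Gc, Apoc2, Serpina1a, Serpina1c and Vtn. The HNF4 core CAAAG was found in 19 of 24 (79.2%), against 54.0%, the longer CAAAGTCCA that contains it in 0 of 24, against 0.477%, and CCAAT in 15 of 24 (62.5%), against 37.9%. All motifs were read on both strands, and a match describes letters in the window only.

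The members took 18.5 to 20.2% of all TPM in KO and 18.4 to 19.7% in WT, but 3.25 to 3.36% in OE and 6.14 to 6.21% in GFP. As a share of counts, they took 17.5 to 18.6% in KO and 16.1 to 16.7% in WT, without the overlap seen in TPM. Alb, the main carrier of fatty acids in plasma, ranked first of the 30 in every group, at 69911 ± 3790 TPM in KO, 54555 ± 962 TPM in WT, 7532 ± 118 TPM in OE and 14078 ± 299 TPM in GFP (SD, n = 3). Apoe, a ligand of lipoprotein receptors, ranked second in KO (24857 ± 2226 TPM), WT (32065 ± 1066 TPM) and OE (3682 ± 66.5 TPM), and stood behind Hpx in GFP (6351 ± 121 TPM). Pltp, the phospholipid transfer protein, ranked last in all 4 groups, at 2.90 ± 1.56 TPM in KO, 6.82 ± 4.24 TPM in WT, 2.69 ± 0.573 TPM in OE and 3.28 ± 0.237 TPM in GFP. In the order of levels, the 3 libraries of a member overlapped those of the next member down 16 times in KO, 17 times in WT, 6 times in OE and 9 times in GFP.

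**Figure D1:**
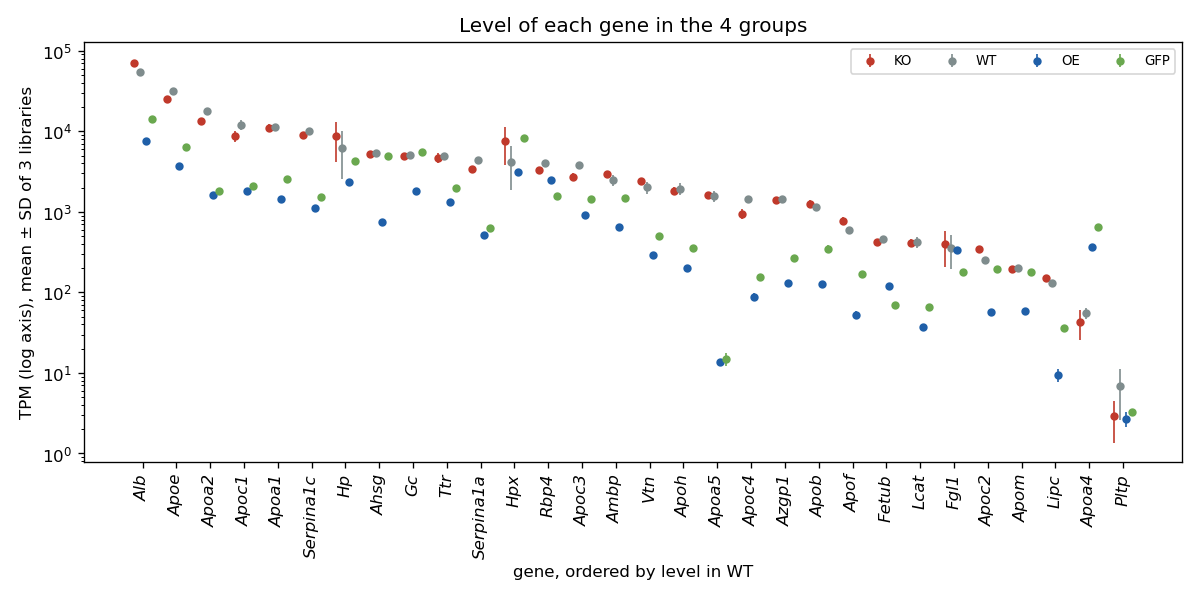
Level of each of the 30 genes in TPM on a log axis, ordered by level in WT; points are means and bars the SD of 3 libraries, for KO, WT, OE and GFP. Alb stands at 69911 TPM in KO and 54555 TPM in WT, and Apoa5 and Apoa4 lie apart between the 2 pairs of groups.

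KO was compared with WT to ask which of these transcripts depend on CEBPA in hepatocytes. With Cebpa almost absent, no member changed by the test across all genes (edgeR quasi-likelihood, Benjamini-Hochberg adjusted p under 0.05): 0 of 30 rose, beside 0.692% of the 11846 genes tested, and 0 fell, beside 1.02%. The log2 fold change of KO over WT had a median of -0.00 over the members and 0.01 over all genes tested, with 15 members above 0 and 15 below. At an unadjusted p under 0.05 there were 9 of the 30 members, 3 higher in KO and 6 lower, beside 1644 of the 11846 genes tested. DESeq2 called 7 of the 30 members and 625 genes in all, and its share over all genes was not taken. An edgeR fit of all 12 libraries called 8 of the 30, beside 1205 of the 15326 genes tested. The 3 KO libraries lay wholly above or below the 3 WT libraries in 11 members (36.7%), 4 above and 7 below, beside 20% of all genes tested. The 95% interval stayed within a 2-fold change either way in 26 of the 30.

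**Figure D2:**
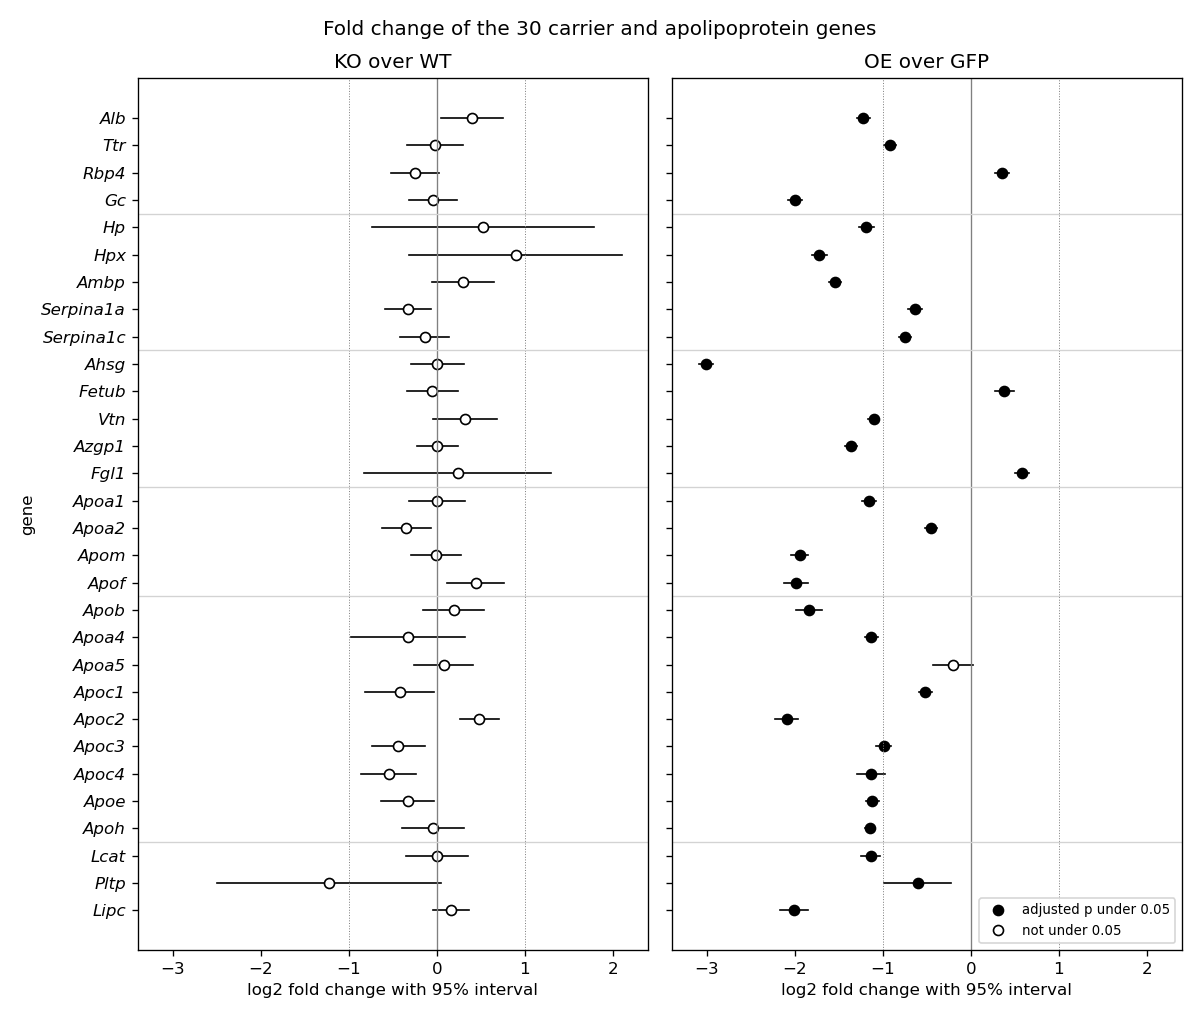
Log2 fold change with its 95% interval for the 30 genes, KO over WT on the left and OE over GFP on the right, grouped by role; filled points passed an adjusted p of 0.05. None of the 30 is filled for KO over WT and 29 are filled for OE over GFP, 26 of them below 0.

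OE was compared with GFP to ask which of these transcripts change when Cebpa is added. The mean level of Cebpa was 13675 CPM in OE and 276 CPM in WT, with the 2 experiments scaled apart. The gain thus went far beyond the level in WT cells. Carriers and apolipoproteins were broadly lower with the Cebpa virus: 26 of the 30 fell (86.7%), beside 42.7% of the 14889 genes tested, and 3 rose, beside 43.9%. The edgeR adjusted p of these 29 calls was at most 0.00553, that of Pltp. A fall of more than 2-fold was found in 19 members (63.3%), beside 18.5% of all genes, and a rise of more than 2-fold in 0, beside 23.5%. The median log2 fold change was -1.14 over the members and 0.01 over all genes tested. The members were chosen with earlier results of these data known, so these comparisons with all genes are a description. The OE and GFP libraries did not overlap in any of the 30, beside 87% of all genes, and the biological coefficient of variation was 4.04% in OE and GFP and 20.4% in KO and WT. With limma on log2(TPM + 1) the median gene lay 0.29 above 0, and 7100 genes were called higher and 4093 lower, beside 6531 and 6362 in the edgeR test; no member changed direction in OE under any scaling tried. The number of members that fell more than 2-fold depended on the scaling: it was 10 (33.3%) with limma on log2(TPM + 1), beside 10% of all genes, where Alb, Hp, Vtn, Apoa1, Apoa4, Apoc4, Apoe, Apoh and Lcat fell by less, and 14 (46.7%) with library totals, beside 15.5%. Of the 10 hepatocyte marker genes 7 fell and 3 rose, and their part in the members' change was not tested.

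Among the carriers of vitamins and hormones, Alb was at 102860, 100580 and 90088 CPM in KO, against 74170, 75823 and 72471 CPM in WT. All 3 KO libraries stood above all 3 WT libraries, at 1.32-fold (95% interval 1.03 to 1.68), but the difference did not pass the test (log2 fold change 0.40 ± 0.15, SE, edgeR adjusted p = 0.300). It passed with DESeq2 (adjusted p = 0.00709) and in an edgeR fit of all 12 libraries (adjusted p = 0.0455). In OE, Alb was at 7787, 7651 and 7388 CPM, against 18102, 17935 and 17263 CPM in GFP, a 2.34-fold fall (log2 fold change -1.22 ± 0.03, SE, edgeR adjusted p = 1.25e-13). The transcript of albumin was therefore lower in OE and not lower in any KO library.

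Gc, the vitamin D-binding protein, was at 5539, 5355 and 5346 CPM in KO, against 5277, 5729 and 5729 CPM in WT, with overlapping libraries. It was at 1433, 1374 and 1328 CPM in OE, against 5601, 5448 and 5422 CPM in GFP, a 3.98-fold fall (log2 fold change -1.99 ± 0.04, SE, edgeR adjusted p = 1.67e-15). Ttr, which carries thyroxine and holds retinol-binding protein in plasma, differed little in KO (log2 fold change -0.02 ± 0.13, SE, edgeR adjusted p = 0.956) and fell 1.89-fold in OE (log2 fold change -0.92 ± 0.03, SE, edgeR adjusted p = 9.51e-13). Rbp4, the retinol carrier that travels with Ttr, went the other way in OE: it was at 1051, 1043 and 993 CPM in OE, against 797, 837 and 783 CPM in GFP, a 1.28-fold rise (log2 fold change 0.35 ± 0.04, SE, edgeR adjusted p = 3.57e-07). In KO, Rbp4 was at 1907, 1758 and 1978 CPM, against 2145, 2157 and 2392 CPM in WT, lower in every library but not past the test (log2 fold change -0.25 ± 0.11, SE, edgeR adjusted p = 0.402). The pair of proteins that circulate as a complex thus had transcripts that moved in opposite directions in OE.

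**Figure D3:**
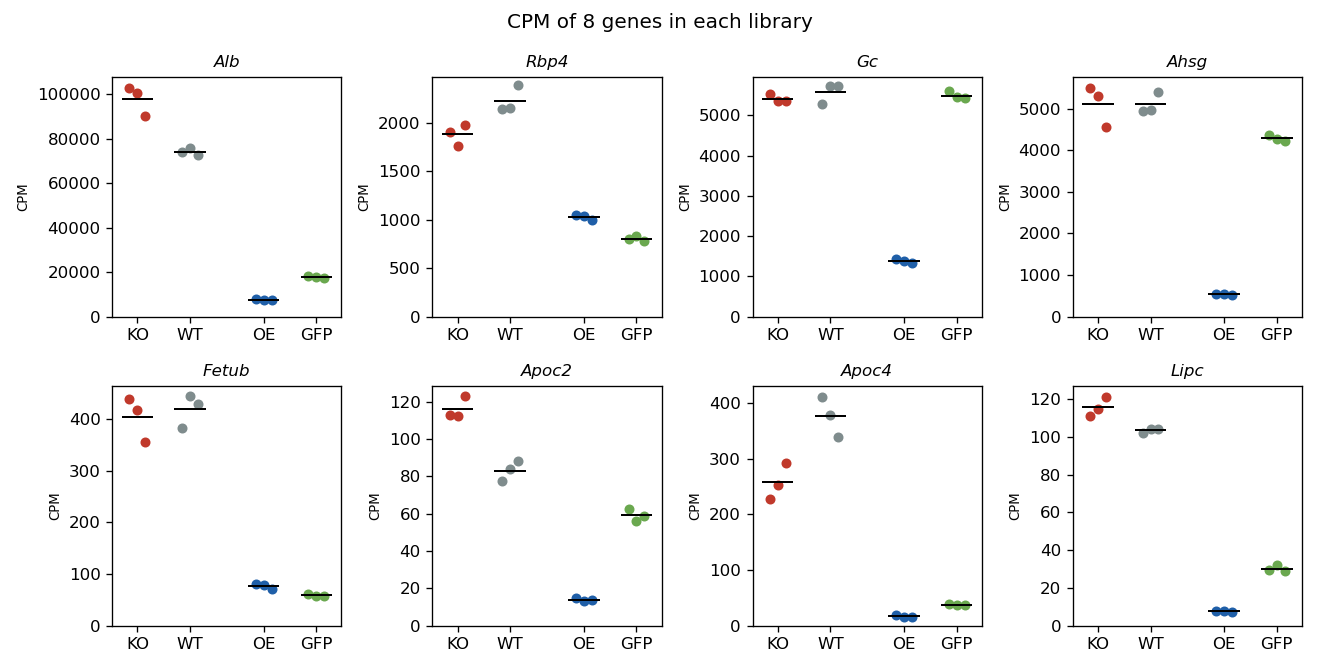
CPM of 8 genes in each library, with the group mean as a line, KO and WT scaled together and OE and GFP scaled together; each axis starts at 0. Ahsg is at 518 to 543 CPM in OE and 4227 to 4364 CPM in GFP, whereas Fetub and Rbp4 are higher in OE than in GFP.

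The haem and haemoglobin scavengers Hp and Hpx varied more between libraries of 1 group than between KO and WT. Hp, which binds free haemoglobin, was at 9359, 10570 and 3012 CPM in KO, against 3355, 3803 and 8811 CPM in WT. Hpx, which binds haem, was at 8128, 10675 and 3258 CPM in KO, against 2284, 3155 and 6427 CPM in WT. In both, KO1, KO2 and WT3 were high and KO3, WT1 and WT2 low. Fgl1, a secreted fibrinogen-like protein that binds the T cell receptor LAG3, had the same split, at 327, 409 and 129 CPM in KO, against 164, 206 and 365 CPM in WT. Ambp, Ahsg, Vtn, Apoa5 and Lcat were also higher in KO1, KO2 and WT3 than in KO3, WT1 and WT2, all by less than 1.5-fold between the nearest libraries. Genes with this split were not counted over all genes. Over all genes, deviations from the group mean in WT3 correlated with those in KO1 and KO2 at 0.15 and 0.16. Those in KO3 correlated with those in WT1 and WT2 at 0.12 and 0.17, so the split was not shown to be particular to the members.

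The summed level of 15 acute phase genes moved with this split, at 27087, 36762 and 9790 TPM in KO, against 11802, 12631 and 18494 TPM in WT, as did the 8 endothelial genes, at 19.4, 20.98 and 8.62 TPM in KO, against 7.13, 9.77 and 14.7 TPM in WT. The 12 macrophage genes were at 39.6, 42.7 and 14.2 TPM in KO, against 3.58, 5.76 and 23.96 TPM in WT, again highest in KO1, KO2 and WT3. Their part in the result was not tested. In the comparison of KO with WT, Hp was at log2 fold change 0.52 ± 0.54 (SE, edgeR adjusted p = 0.690) and Hpx at 0.89 ± 0.51 (SE, edgeR adjusted p = 0.476), and neither was called when any 1 library was left out.

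**Figure D4:**
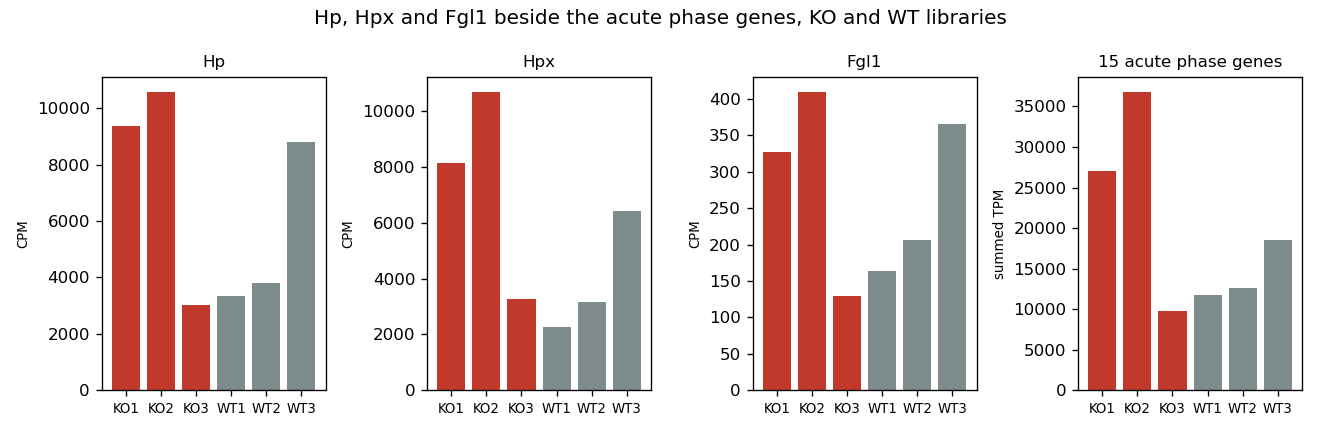
CPM of Hp, Hpx and Fgl1 and the summed TPM of 15 acute phase genes in each KO and WT library, as bars from 0. KO1, KO2 and WT3 are the 3 highest libraries in each panel.

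In OE, the same genes were even between libraries. Hp was at 1580, 1476 and 1460 CPM in OE, against 3554, 3276 and 3457 CPM in GFP, a 2.28-fold fall (log2 fold change -1.19 ± 0.04, SE, edgeR adjusted p = 1.30e-12). Hpx was at 2272, 2208 and 2151 CPM in OE, against 7640, 6997 and 7228 CPM in GFP, a 3.30-fold fall (log2 fold change -1.72 ± 0.04, SE, edgeR adjusted p = 1.45e-14). Of the 15 acute phase genes, 9 rose and 5 fell in OE, among them Orm1 (2.18-fold higher, edgeR) and Crp (log2 fold change -3.33), so Hp and Hpx fell while most of that list rose. Ambp, the precursor of alpha-1-microglobulin and bikunin, was at 387, 374 and 374 CPM in OE, against 1142, 1090 and 1082 CPM in GFP, a 2.92-fold fall (log2 fold change -1.55 ± 0.03, SE, edgeR adjusted p = 8.62e-15).

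Serpina1a and Serpina1c are mouse paralogs of alpha-1-antitrypsin, the inhibitor of neutrophil elastase, and lie 31.4 kb apart on chromosome 12. They share much of their sequence with Serpina1b, Serpina1d and Serpina1e, so the split of reads between the copies is uncertain. Serpina1a was at 2847, 3089 and 3083 CPM in KO, against 3672, 3880 and 3784 CPM in WT, and Serpina1c at 7850, 7827 and 8320 CPM in KO, against 9215, 8762 and 8415 CPM in WT. Both were lower in every KO library without passing the test (edgeR adjusted p = 0.252 and 0.638). Summed over the 5 copies, the level was 17804, 18268 and 20822 CPM in KO, against 27002, 29670 and 28006 CPM in WT, 1.49-fold lower in KO, and this sum was not tested. Serpina1e, which is not one of the 30, carried 55.2% of that difference, at 1586, 1776 and 4110 CPM in KO, against 6117, 8778 and 7918 CPM in WT, and the other 4 copies together were 1.25-fold lower in KO. In OE, Serpina1a fell 1.55-fold and Serpina1c 1.68-fold, and the 5 copies together were at 3051, 3052 and 2890 CPM, against 4546, 4663 and 4579 CPM in GFP.

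The fetuins, which are neighbours, went opposite ways in OE. Ahsg (fetuin-A), which keeps calcium phosphate from precipitating in plasma, was at 534, 543 and 518 CPM in OE, against 4364, 4281 and 4227 CPM in GFP, an 8.07-fold fall that was the largest of the 30 (log2 fold change -3.01 ± 0.04, SE, edgeR adjusted p = 2.61e-17). Fetub (fetuin-B), an inhibitor of the egg protease ovastacin, lies 18.9 kb from Ahsg on chromosome 16. Fetub was at 81.3, 78.7 and 70.1 CPM in OE, against 61.4, 57.7 and 57.7 CPM in GFP, a 1.30-fold rise (log2 fold change 0.38 ± 0.05, SE, edgeR adjusted p = 8.37e-06). Neither passed the test in KO: Ahsg was at 5512, 5314 and 4559 CPM in KO, against 4940, 4972 and 5403 CPM in WT, and Fetub at 440, 419 and 357 CPM in KO, against 383, 445 and 430 CPM in WT, with overlapping libraries in both.

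Fgl1 was at 184, 171 and 162 CPM in OE, against 115, 116 and 115 CPM in GFP, a 1.496-fold rise (log2 fold change 0.58 ± 0.04, SE, edgeR adjusted p = 3.17e-09). The call on Fgl1 was lost in a fit of all 12 libraries (edgeR adjusted p = 0.147), which pools its spread with that of KO and WT. Vtn, the adhesive protein vitronectin, fell 2.15-fold in OE, to 231, 233 and 225 CPM, against 498, 497 and 487 CPM in GFP (log2 fold change -1.11 ± 0.03, SE, edgeR adjusted p = 5.24e-14). Azgp1, a lipid-mobilising glycoprotein, fell 2.58-fold in OE, to 82.1, 77.3 and 76.5 CPM, against 205, 200 and 203 CPM in GFP (log2 fold change -1.36 ± 0.03, SE, edgeR adjusted p = 1.85e-14). In KO, Azgp1 was at 1155, 1144 and 1144 CPM, against 1140, 1133 and 1153 CPM in WT, overlapping within a narrow range.

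Of the HDL apolipoproteins, Apoa1, the structural protein of HDL and activator of LCAT, was at 7956, 6552 and 6774 CPM in KO, against 6714, 6884 and 7667 CPM in WT. The libraries overlapped, and the interval of the fold ran from 0.8001 to 1.25 (log2 fold change 0.00 ± 0.14, SE, edgeR adjusted p = 0.998). In OE, Apoa1 was at 665, 682 and 632 CPM, against 1491, 1471 and 1450 CPM in GFP, a 2.23-fold fall (log2 fold change -1.16 ± 0.04, SE, edgeR adjusted p = 3.24e-13). Apoa2, the second HDL protein, was at 3221, 3121 and 3450 CPM in KO, against 4285, 4341 and 3809 CPM in WT (log2 fold change -0.34 ± 0.12, SE, edgeR adjusted p = 0.266, DESeq2 adjusted p = 0.0498). Apoa2 fell 1.37-fold in OE, the smallest of the 26 falls.

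Apom, which carries sphingosine 1-phosphate on HDL, was at 28.02, 26.4 and 24.4 CPM in OE, against 101.7, 100.8 and 102.1 CPM in GFP, a 3.86-fold fall (log2 fold change -1.95 ± 0.05, SE, edgeR adjusted p = 2.32e-14). In KO its log2 fold change was -0.01 ± 0.12 (SE). Apof, known in humans as an inhibitor of lipid transfer, was at 641, 705 and 542 CPM in KO, against 426, 455 and 510 CPM in WT, higher in every library but not past the test (log2 fold change 0.44 ± 0.14, SE, edgeR adjusted p = 0.216). In OE it was at 35.0, 29.2 and 29.04 CPM, against 116, 125 and 129 CPM in GFP, a 3.96-fold fall (log2 fold change -1.99 ± 0.06, SE, edgeR adjusted p = 3.77e-13). Apon, an apolipoprotein gene outside the 30 that lies 12.8 kb from Apof on chromosome 10, had the opposite signs. Apon fell in KO, to 146, 169 and 147 CPM, against 226, 265 and 284 CPM in WT (log2 fold change -0.75 ± 0.13, SE, edgeR adjusted p = 0.0381). Apon rose 5.604-fold in OE, to 83.98, 84.7 and 85.1 CPM, against 15.8, 15.04 and 14.4 CPM in GFP.

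Apob, the backbone of VLDL and LDL, was at 8650, 7028 and 7124 CPM in KO, against 5881, 6966 and 7142 CPM in WT, with overlapping libraries (log2 fold change 0.19 ± 0.15, SE, edgeR adjusted p = 0.603). In OE, Apob was at 530, 605 and 604 CPM, against 2007, 1905 and 2316 CPM in GFP, a 3.58-fold fall (log2 fold change -1.84 ± 0.07, SE, edgeR adjusted p = 2.41e-12). Mttp, the transfer protein that loads lipid onto apoB, fell with it in OE (log2 fold change -2.39 ± 0.05, SE). In a list of 29 genes for lipoprotein assembly, uptake and remodelling, of which 28 were tested in each comparison, 10 rose and 16 fell in OE, with a median log2 fold change of -0.24. In KO, 1 rose and 2 fell: Lpl, the lipase of triglyceride-rich particles, was 7.62-fold higher, and Pon1 and Abcg8 were lower (log2 fold change -1.03 and -1.20). In a list of 25 further secreted carriers and inhibitors, 20 fell and 2 rose of 23 tested in OE, with Afp, Selenop and Clu at the lowest p (log2 fold change -6.43, -2.85 and -2.78), and in KO 2 of 22 fell, Serpina1d and Apon.

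The Apoe cluster on chromosome 7 holds Apoc2, Apoc4, Apoc1 and Apoe in that order, all on the minus strand. In KO its members did not go one way. Apoc2, the cofactor of lipoprotein lipase, had the lowest adjusted p of the 30, at 113, 112 and 123 CPM in KO, against 77.3, 83.8 and 88.0 CPM in WT (1.40-fold, log2 fold change 0.48 ± 0.10, SE, edgeR adjusted p = 0.0658). Apoc4, its neighbour 0.140 kb away, was at 227, 252 and 292 CPM in KO, against 410, 379 and 339 CPM in WT (log2 fold change -0.55 ± 0.13, SE, edgeR adjusted p = 0.1201). The libraries of KO and WT did not overlap in either gene, and the directions were opposite. Both differences passed with DESeq2 (adjusted p = 0.00188 for Apoc2 and 0.00907 for Apoc4) and in the fit of all 12 libraries (edgeR adjusted p = 0.00269 and 0.0113).

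An annotated read-through gene, Gm44805, spans both Apoc2 and Apoc4 on the same strand, so reads can be split between the 3 genes. It held 262, 196 and 347 expected counts in KO, 357, 370 and 323 in WT, 0 in each OE library and 12.9, 53.5 and 9.09 in GFP. With Gm44805 added to Apoc2, the level was 126, 123 and 137 CPM in KO, against 93.6, 99.7 and 102 CPM in WT, 1.31-fold higher in KO with no overlap. With it added to Apoc4, the level was 240, 262 and 306 CPM in KO, against 427, 395 and 353 CPM in WT, 1.45-fold lower in KO with no overlap. These sums were not tested.

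Apoe was at 14157, 12384 and 13726 CPM in KO, against 17195, 17094 and 16373 CPM in WT, lower in each KO library (log2 fold change -0.33 ± 0.13, SE, edgeR adjusted p = 0.318, DESeq2 adjusted p = 0.0426). Macrophages also make Apoe, and their summed markers were higher in KO than in WT on average while Apoe was lower; their part in the difference was not tested. Apoc1, an inhibitor of lipase and receptor binding, was at 1428, 1643 and 1884 CPM in KO, against 2475, 2330 and 1822 CPM in WT, where KO3 exceeded WT3 (edgeR adjusted p = 0.333). In OE all 4 genes of the cluster fell, but unequally. Apoc2 fell 4.26-fold, to 14.5, 13.1 and 13.9 CPM, against 62.7, 56.2 and 58.5 CPM in GFP (log2 fold change -2.09 ± 0.06, SE, edgeR adjusted p = 1.84e-13). Apoc4 fell 2.20-fold (log2 fold change -1.14 ± 0.07, SE, edgeR adjusted p = 2.15e-09). Apoe fell 2.17-fold (log2 fold change -1.12 ± 0.03, SE, edgeR adjusted p = 2.42e-13) and Apoc1 1.43-fold.

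The Apoa1 cluster on chromosome 9 holds Apoa1, Apoc3, Apoa4 and Apoa5. Apoc3, an inhibitor of triglyceride clearance, was at 703, 643 and 757 CPM in KO, against 1042, 957 and 848 CPM in WT, with no overlap (log2 fold change -0.44 ± 0.13, SE, edgeR adjusted p = 0.184, DESeq2 adjusted p = 0.0320). Apoc3 fell 1.99-fold in OE. Apoa4, an intestinal and hepatic apolipoprotein of triglyceride-rich particles, was at 328, 328 and 324 CPM in OE, against 720, 749 and 684 CPM in GFP, a 2.20-fold fall (log2 fold change -1.13 ± 0.03, SE, edgeR adjusted p = 3.32e-13). Apoa5, which promotes lipolysis of these particles, was the single member not called in OE, at 6.89, 7.55 and 7.89 CPM, against 8.10, 9.49 and 8.01 CPM in GFP (log2 fold change -0.20 ± 0.11, SE, edgeR adjusted p = 0.0867). In KO, Apoa5 was at 1404, 1265 and 1203 CPM, against 1059, 1192 and 1414 CPM in WT, with overlapping libraries.

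**Figure D5:**
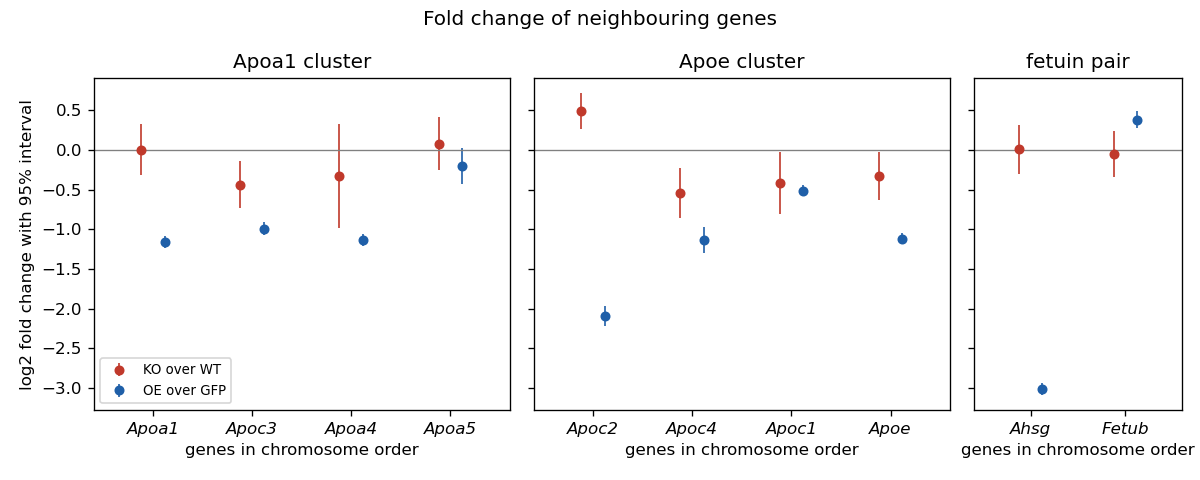
Log2 fold change with its 95% interval for neighbouring genes in chromosome order, KO over WT and OE over GFP: the Apoa1 cluster, the Apoe cluster and the fetuin pair. Apoc2 is above 0 and Apoc4 below 0 in KO over WT, and Ahsg is at -3.01 while Fetub is at 0.38 in OE over GFP.

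Apoa5 and Apoa4 lie 25.2 kb apart and differed most between the 2 experiments. Apoa5 was at 14.9 TPM in GFP and 1556 TPM in WT, 104-fold apart, while Apoa4 was at 645 TPM in GFP and 55.4 TPM in WT, 11.6-fold the other way. Of the 30 members, 27 were lower in GFP than in WT, with a median ratio of 3.56 for WT over GFP. The 3 that were higher in GFP were Apoa4, Hpx (2.00-fold) and Gc (1.10-fold). The same count and median were not taken over all genes, so this difference was not shown to be particular to the members. These levels are a description without a test, since a virus is named for OE and GFP only, and the labels do not say how culture and source of the cells compared between the experiments.

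Apoh, a phospholipid-binding protein also named beta-2-glycoprotein I, was at 110, 112 and 109 CPM in OE, against 247, 245 and 243 CPM in GFP, a 2.22-fold fall (log2 fold change -1.15 ± 0.03, SE, edgeR adjusted p = 2.57e-14). Apoh overlapped between KO and WT (log2 fold change -0.05 ± 0.15, SE). Lipc, hepatic lipase, was at 7.51, 7.86 and 7.05 CPM in OE, against 29.4, 32.1 and 28.96 CPM in GFP, a 4.03-fold fall (log2 fold change -2.01 ± 0.07, SE, edgeR adjusted p = 2.54e-12). In KO, Lipc was at 111, 115 and 121 CPM, against 102, 104 and 104 CPM in WT, a small difference without overlap (1.12-fold, edgeR adjusted p = 0.448). Lcat, which esterifies cholesterol on HDL, was at 24.6, 23.1 and 22.4 CPM in OE, against 52.8, 50.9 and 50.7 CPM in GFP, a 2.20-fold fall (log2 fold change -1.14 ± 0.05, SE, edgeR adjusted p = 2.78e-11), with a log2 fold change of 0.00 ± 0.15 (SE) in KO. Pltp was scarce throughout, at 5.54, 2.88 and 2.09 CPM in KO, against 4.03, 14.3 and 6.16 CPM in WT, and it overlaps Ctsa, a far more abundant gene on the other strand. Pltp fell 1.52-fold in OE (edgeR adjusted p = 0.00553), a call that was lost with limma on TPM (adjusted p = 0.168) and in the fit of all 12 libraries (edgeR adjusted p = 0.274).

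Whether the 2 effects mirrored each other was tested as their sum, KO over WT plus OE over GFP on the log2 scale, which is 0 for a gene that changes by the same amount in opposite directions, in a fit of all 12 libraries. The sum differed from 0 in 24 of the 30 members (80%), beside 55.1% of the 15326 genes tested, and was negative in all 24. The direction of the sum was not counted over all genes, and 27 of the 30 members were already below 0 in OE. The sum was not called in Rbp4 (0.10 ± 0.12, SE, edgeR adjusted p = 0.498), Fetub (0.32 ± 0.13, SE, edgeR adjusted p = 0.0570), Fgl1, Hp, Hpx and Apoa5. With limma voom and 1 variance weight per experiment, which lets the spread differ between the experiments, the same 24 and Fetub (adjusted p = 0.0471) were called. The share of all genes called with limma voom was not taken. Pltp had the highest edgeR adjusted p of the 24 (0.0296) and lost its call in 8 of 18 alternatives. By sign alone, 13 members were below 0 in both comparisons, 14 were above 0 in KO and below 0 in OE, 2 (Rbp4 and Fetub) were below 0 in KO and above 0 in OE, and 1 (Fgl1) was above 0 in both. None of these KO effects passed the test, and the KO sign of members near 0, Fetub, Ttr and Ahsg among them, changed under some alternatives. Sign combinations were not counted over all genes. The KO signs were split 15 to 15 and 27 members were below 0 in OE, so the counts of 13 and 14 add little to the OE result.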

How the data were processed

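Stranded libraries were prepared from poly(A) RNA. The submitters' processing notes name Trimmomatic 0.36, STAR 2.5.1, Picard 1.84, RSEM 1.2.22 and DESeq2, with build mm10. The deposited tables give RSEM expected counts, which are estimated reads per gene not scaled to depth, and TPM, which the authors' RSEM run scaled for effective gene length; whether counting used strand is not given in the sources used here.

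Expected counts were rounded and tested on the 6 libraries of each experiment with edgeR 4.0.16 in R 4.3.3 (filterByExpr with a minimum count of 10 and total of 15, TMM scaling, quasi-likelihood F test, Benjamini-Hochberg adjustment over all genes tested, called under 0.05). The sum of the 2 effects was tested in a fit of all 12 libraries. Alternatives were DESeq2 1.42.0, limma 3.58.1 on log2(TPM + 1) or log2(TPM + 0.1) (mean TPM of 1 or more, or any TPM above 0), other scalings and filters, 1 fit of all 12 libraries, limma voom with 1 variance weight per experiment for the sum of the effects, a block for the replicate number and the omission of 1 library at a time. The pipeline was checked on simulated data. Coordinates are from GENCODE M21 (mm10) and promoters from RefSeq (GRCm38.p6, the first entry per gene).

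The members and lists were chosen with earlier results of these data known. All 30 members are named, with full statistics in the comparison concerned for those called without overlap and at least 2-fold, and for Alb, Ttr, Apoa1, Apob and Apoe; other list genes are named by lowest p, up to 4 per list and comparison. Gm44805, the Serpina1 sum, the library split of Hp and Hpx and the position of Apon were taken up after values were seen. Counts of reads are not independent molecules.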

Additional observations from a re-analysis of the deposited data

Results flagged for a closer look

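In 24 members the effects of losing and of adding Cebpa were not equal and opposite (edgeR adjusted p under 0.05). They were tested as the sum of the KO over WT and OE over GFP log2 fold changes in 1 fit of the 12 libraries. No KO effect passed the main test, and the sum could lie close to the OE change, as in Ahsg (0.01 in KO, -3.01 in OE). It was also called where signs were opposite but sizes unequal, as in Alb (0.40 in KO, -1.22 in OE). Cebpa was at 13675 CPM in OE and 276 CPM in WT, so equal sizes could not be presumed. The sum was -3.01 for Ahsg, -2.04 for Gc, -1.97 for Apom, -1.85 for Lipc, -1.69 for Apoc4, -1.66 for Apob and -1.61 for Apoc2. It was -1.56 for Apof, -1.46 for Apoa4, -1.45 for Apoe, -1.43 for Apoc3, -1.36 for Azgp1, -1.25 for Ambp, -1.20 for Apoh, -1.16 for Apoa1 and -1.14 for Lcat. It was -0.97 for Serpina1a, -0.94 for Ttr and for Apoc1, -0.89 for Serpina1c, -0.83 for Alb, -0.80 for Apoa2 and -0.79 for Vtn. The sum was -1.84 for Pltp, a scarce gene whose call was lost in 8 of 18 alternatives, among them the replicate block (adjusted p = 0.0714) and the fit without WT2, where the sum was -1.16 (edgeR adjusted p = 0.0680). The fit shares 1 dispersion per gene between experiments whose spread differed (biological coefficients of variation of 20.4% in KO and WT and 4.04% in OE and GFP). With limma voom and 1 variance weight per experiment, 25 members were called, these 24 and Fetub. Over all genes, edgeR called the sum in 55.1% of the 15326 tested, and the share with limma voom was not taken. A virus is named for OE and GFP only, so the sum adds a difference between 2 virus-treated groups to a difference between 2 groups with no virus named.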

How the results depend on the processing

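No member changed direction past the test under any alternative. In KO against WT, 203 genes were called by edgeR on 6 libraries, 625 with DESeq2, 324 without a filter, 91 with a stricter filter, 112, 103 and 70 with limma on log2(TPM + 1), log2(TPM + 0.1) and log2(TPM + 1) over genes with any TPM above 0, 1205 with all 12 libraries and 42 to 396 when 1 library was left out. The 0 members called became 7 of 30 with DESeq2 (Alb, Serpina1a, Apoa2, Apoc2, Apoc3, Apoc4 and Apoe), beside 625 genes in all, whose share of the genes tested was not taken. The count became 8 of 30 with all 12 libraries (the same 7 and Apof), beside 1205 of the 15326 genes tested. It stayed at 0 when any 1 library was left out. In OE against GFP, 27 to 29 members were called under every alternative; Pltp was lost with limma on TPM and not tested under a stricter filter, and Pltp and Fgl1 were lost with all 12 libraries. Of the 19 members that fell more than 2-fold in OE, 10 did so with limma on log2(TPM + 1), 10 on log2(TPM + 0.1) and 10 over genes with any TPM above 0, 14 with library totals, and 19 to 20 in the other alternatives. The sum of the 2 effects was called in 23 to 25 members, 25 of them with limma voom and 1 variance weight per experiment, and Pltp lost its call in 8 alternatives. Labels give the groups the same replicate numbers, but same-numbered libraries did not deviate together (correlations 0.00, -0.03 and -0.28 in KO and WT, -0.05, 0.05 and -0.05 in OE and GFP); with a replicate block, 87 genes and 0 members were called in KO against WT and 12816 genes and 29 members in OE against GFP. The members' mean share of counts was 18.1% in KO, 16.3% in WT, 2.20% in OE and 5.07% in GFP. With 3 libraries per group and the spread of KO and WT, a small change in a member may not be detectable.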
